A study of Mus musculus with 14 samples.

Results

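T cell receptor genes were examined in bulk mRNA of 14 mouse liver tumours, as 119 gene segments among 29923 symbols of the expression table and as 8 of the 20 rows of a receptor repertoire table. Segments were taken by symbol, as the variable, diversity, joining and constant genes of the alpha, beta, gamma and delta chains. The alpha chain had 78 variable segments and the constant gene Trac, and the beta chain had 23 variable segments with Trbc1 and Trbc2. The gamma chain had 6 variable segments and 4 constant genes, and the delta chain had 4 variable segments and Trdc. No symbol of a joining or diversity segment was among the 119. The 8 repertoire rows were the clonotype number, clone number, entropy and clonality of the alpha chain (TRA) and of the beta chain (TRB).

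Tumours were induced in C57BL/6 mice by injecting plasmids into the tail vein under pressure, with the transposase SB100 to insert them into the genome of liver cells. LucOS tumours carried MYC, luciferase and the antigens OVA, SIN and SIY, and Luc tumours carried MYC and luciferase. Both models were made with a plasmid carrying Aoah, the gene of acyloxyacyl hydrolase, or with the same plasmid empty, called vector here. This gave 3 LucOS Aoah, 3 LucOS vector, 4 Luc Aoah and 4 Luc vector tumours. MYC was driven by the EF1a promoter by the plasmid's name, and a plasmid for truncated beta-catenin is listed without saying which tumours received it. Nothing in the labels says that a tumour received anti-PD1. The age of the mice and whether each tumour came from its own mouse are not given, so p-values measure only the spread between these samples.

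The T cell receptor is a pair of chains, alpha with beta or gamma with delta, that recognises antigen at the cell surface and signals through the CD3 proteins. Each chain is assembled during T cell development by joining a variable segment to joining and, in beta and delta, diversity segments, and the constant gene is spliced on behind them. The number of distinct rearranged chains is the repertoire, and a clone that divides raises the share of its own segments. Mouse liver is known for its many invariant natural killer T (NKT) cells, whose receptors use a narrow set of segments.

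Among the 14 tumours, hepatocyte genes summed to 4494 to 29202 TPM (transcripts scaled for gene length and library), none of 10 being at 0 in every tumour. The summed TPM of Cd3d, Cd3e and Cd3g, the CD3 chains of the receptor complex, ran between 1.48 and 49.36. In bulk RNA, more T cells and more receptor RNA per T cell cannot be told apart. Aoah stood at 576.03 to 931.15 TPM in LucOS Aoah and 1.28 to 3.43 TPM in LucOS vector tumours, and at 283.72 to 685.24 TPM in Luc Aoah tumours. The Luc vector tumours differed in Aoah, with 18.57 TPM in vector 1 and 54.76 TPM in vector 3 against 0.74 and 0.89 TPM in vector 2 and vector 4. LucOS Aoah 3 stood apart in its mitochondrial share of TPM, 16.6% against 3.41% to 8.45% elsewhere. Sequencing depth per tumour is not known, since TPM does not keep it. At least 1 TPM in 3 tumours was required for testing, which 18 of the 119 segments met: 16 of beta, Trac of alpha, Trgc2 of gamma and none of delta. The other 101 segments are described by their values without a test.

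The 3′ end of each variable segment, where the joint is made, is shown to let the segments and the members of a family be compared there. The beta segments that rose in Luc come first, then Trbv12-1 as the near relative of Trbv12-2, then Trbv17, Trav14n-3 and Trgv2, which led their chain in some tumours. Each line gives the last 45 bases of the segment's transcript in GENCODE M21 (build GRCm38), and the capitals mark the codon of the conserved cysteine that opens the antigen-binding loop CDR3.
Trbv5: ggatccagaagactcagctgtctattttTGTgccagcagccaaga
Trbv15: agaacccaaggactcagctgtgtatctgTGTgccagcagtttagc
Trbv3: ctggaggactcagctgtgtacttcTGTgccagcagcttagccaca
Trbv1: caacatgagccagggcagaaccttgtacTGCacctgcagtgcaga
Trbv14: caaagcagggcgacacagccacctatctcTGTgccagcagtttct
Trbv19: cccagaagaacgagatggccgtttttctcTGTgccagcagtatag
Trbv29: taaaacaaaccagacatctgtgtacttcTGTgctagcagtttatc
Trbv13-1: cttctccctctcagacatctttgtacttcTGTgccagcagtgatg
Trbv13-2: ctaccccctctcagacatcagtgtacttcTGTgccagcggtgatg
Trbv13-3: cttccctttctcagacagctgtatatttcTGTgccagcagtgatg
Trbv12-2: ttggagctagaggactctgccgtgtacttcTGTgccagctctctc
Trbv12-1: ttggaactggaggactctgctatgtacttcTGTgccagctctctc
Trbv17: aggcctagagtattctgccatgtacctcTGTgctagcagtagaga
Trav14n-3: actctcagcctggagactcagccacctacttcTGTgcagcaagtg
Trgv2: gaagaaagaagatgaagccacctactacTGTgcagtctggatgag
Beta segments lie on chromosome 6, alpha and delta segments on chromosome 14 and gamma segments on chromosome 13. The beta variable segments are distinct enough to be counted apart: none of 23 had another at 95% identity or more, and the closest pair, Trbv13-2 and Trbv13-3, shared 90.6% of bases. Trbc1 and Trbc2 shared 83.1%. Of the 78 alpha variable segments, 58 had a copy at 95% or more, and 12 pairs of segments with identical transcripts also had equal TPM in every tumour. The alpha locus of C57BL/6 holds duplicated blocks, and the split of reads between such copies is uncertain. The gamma constant genes Trgc1, Trgc2 and Trgc3 were at least 95.1% alike, so their split is uncertain too.

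Both beta constant genes were higher in every Aoah tumour than in every vector tumour of the same model, as were 6.22% of all tested genes in LucOS and 11.8% in Luc. Trbc2, spliced to chains from the second beta joining cluster, stood at 30.27, 22.96 and 44.76 TPM in LucOS Aoah against 10.95, 4.83 and 11.80 TPM in LucOS vector tumours. In Luc it stood at 20.29, 20.02, 23.96 and 35.79 TPM with Aoah against 6.41, 2.61, 3.75 and 3.69 TPM with vector. Trbc2 rose by 1.75 (SE 0.36, limma adjusted p = 0.0339) in LucOS and by 2.36 (SE 0.31, adjusted p = 0.000339) in Luc on the log2(TPM + 1) scale. Its paralog Trbc1 stood at 16.89, 13.78 and 31.71 TPM in LucOS Aoah against 8.99, 1.36 and 4.23 TPM in LucOS vector tumours. In Luc, Trbc1 stood at 12.97, 11.78, 18.11 and 22.45 TPM with Aoah against 3.80, 0.24, 2.04 and 2.45 TPM with vector. The rise of Trbc1 passed in Luc (2.58, SE 0.46, limma adjusted p = 0.00228), and its LucOS change of 2.04 did not pass (SE 0.53, adjusted p = 0.0897). The LucOS call of Trbc2 did not hold under every leave-out, while its log2 change stayed between 1.39 and 1.97. The call was lost without LucOS Aoah 1 (limma adjusted p = 0.122), LucOS Aoah 3 (0.168), LucOS vector 1 (0.0577) or LucOS vector 3 (0.074), and the adjusted p ran between 0.0233 and 0.175 over all alternatives.

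Trac, the single constant gene of the alpha chain, was less evenly placed. It stood at 13.28, 3.42 and 21.38 TPM in LucOS Aoah against 3.80, 1.61 and 4.28 TPM in LucOS vector tumours. In Luc it stood at 3.54, 8.66, 2.62 and 9.12 TPM with Aoah against 1.45, 0.26, 3.25 and 4.07 TPM with vector. The groups overlapped in both models, since LucOS Aoah 2, Luc Aoah 1 and Luc Aoah 3 lay within the vector tumours. Its change was 1.47 in LucOS (SE 0.62, limma adjusted p = 0.341) and 1.15 in Luc (SE 0.53, adjusted p = 0.117). Averaged over both models it passed (1.31, SE 0.41, limma adjusted p = 0.0439), and this call was lost in 16 of 21 alternatives. Leaving out 1 tumour at a time kept it only without Luc Aoah 3, Luc vector 4 or LucOS Aoah 2 (adjusted p = 0.0336, 0.0405 and 0.00959), and gave an adjusted p of 0.0502 to 0.11 without any other tumour.

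**Figure D1:**
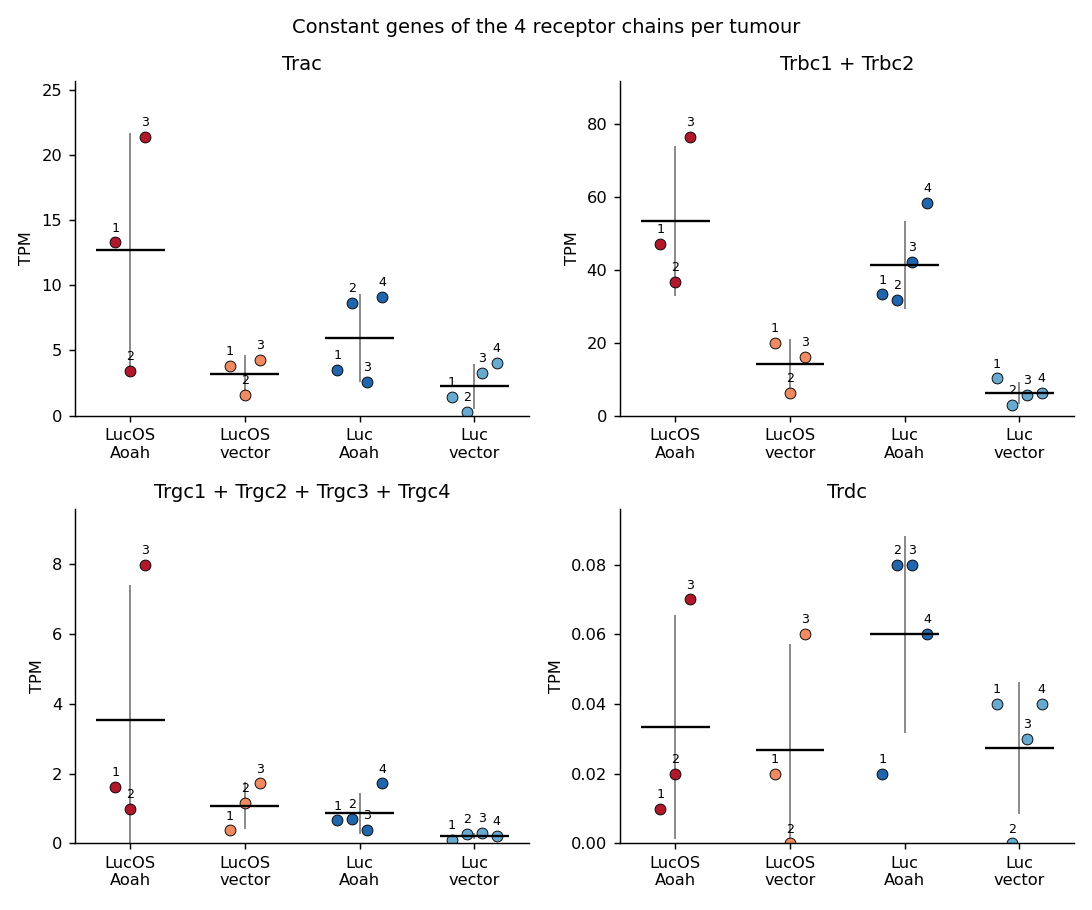
TPM of the constant genes per tumour, with beta and gamma genes summed per chain (y axis), in the 4 groups (x axis). Points are tumours with their replicate number, the bar is the group mean and the vertical line its SD; the summed beta genes lay at 31.8 to 76.47 TPM in Aoah tumours and 2.85 to 19.94 TPM in vector tumours.

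Beta variable segments were detected broadly in Aoah tumours of both models and sparsely in most vector tumours. LucOS Aoah tumours had 19 of 23 segments above 0 each, and LucOS vector tumours had 19, 5 and 14. Luc Aoah tumours had 20, 17, 19 and 19 above 0, and Luc vector tumours had 10, 8, 7 and 9. Summed over the 23, they came to 25.81, 19.78 and 39.47 TPM in LucOS Aoah against 15.92, 2.83 and 9.8 TPM in LucOS vector tumours. In Luc the sums were 22.89, 21.07, 26.71 and 33.74 TPM with Aoah against 4.82, 2.61, 2.63 and 3.9 TPM with vector. The Luc groups lay far apart, while LucOS vector 1 came nearest to the Aoah tumours of its model.

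In Luc tumours 13 of the 18 tested segments rose with Aoah and none fell, where 7.93% of all 13466 tested genes rose, 14.3% fell and 22.2% did either. The 18 include segments that met the level requirement only through the Aoah tumours, so this count is a description. Besides Trbc1 and Trbc2 the 13 were Trbv1, Trbv3, Trbv5, Trbv12-2, Trbv13-1, Trbv13-2, Trbv13-3, Trbv14, Trbv15, Trbv19 and Trbv29. The median change of all tested genes was -0.24 in Luc. With each tumour centred on its median, the median of all genes became 0.07 and Trbc2 changed by 2.67. The count was 8 without Luc Aoah 4 and 7 without Luc vector 3. Without Luc vector 1 and vector 3, the 2 Luc vector tumours with the most Aoah RNA, 4 segments passed (Trbc1, Trbc2, Trbv3 and Trbv5). Over 16 alternatives those 4 kept their call in every one. Trbv13-1 lost it in 3, Trbv1 and Trbv14 in 6 each, Trbv29 in 9, Trbv13-3 in 10 and Trbv12-2 in 11, and Trbv13-2, Trbv15 and Trbv19 in 1 each.

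Trbv5, known as V beta 1, had the smallest standard error of these. It stood at 1.53, 1.63, 1.41 and 2.40 TPM in Luc Aoah against 0.20, 0.21, 0 and 0 TPM in Luc vector tumours (log2 change 1.31, SE 0.17, limma adjusted p = 0.000339). Trbv15, or V beta 12, stood at 2.62, 2.42, 2.33 and 1.47 TPM with Aoah against 0, 0, 0.22 and 0.26 TPM with vector (1.51, SE 0.29, limma adjusted p = 0.00391). All Aoah tumours exceeded all vector tumours for both segments. Trbv3 stood at 1.65, 3.59, 1.81 and 3.03 TPM in Luc Aoah against 0.86, 0, 0.15 and 0 TPM in Luc vector tumours (1.5, SE 0.30, limma adjusted p = 0.00487). Trbv19, or V beta 6, stood at 0.91, 0.58, 1.20 and 1.90 TPM with Aoah and was listed at 0 in the 4 vector tumours (1.07, SE 0.25, limma adjusted p = 0.0113). Trbv14 rose by 1.06 (SE 0.28, limma adjusted p = 0.0203) and Trbv13-3 by 0.84 (SE 0.27, adjusted p = 0.0405), with every Luc Aoah tumour above every Luc vector tumour. The changes of low segments are understated on the log2(TPM + 1) scale.

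The Trbv13 family, the V beta 8 segments, was detected in all 14 tumours. Its 3 members summed to 7.39, 4.42 and 7.83 TPM in LucOS Aoah against 1.71, 0.78 and 2.95 TPM in LucOS vector tumours. In Luc they summed to 3.22, 5.11, 7.16 and 7.18 TPM with Aoah against 0.71, 0.66, 1.03 and 1.19 TPM with vector. The summed levels did not overlap between Aoah and vector tumours in either model. Trbv13-2 was above 0 in all 14 tumours, at 2.09, 2.64, 2.72 and 2.63 TPM in Luc Aoah against 0.47, 0.24, 0.77 and 0.61 TPM in Luc vector tumours (log2 change 1.22, SE 0.26, limma adjusted p = 0.00701). In LucOS it stood at 2.47, 2.82 and 5.62 TPM with Aoah against 0.71, 0.78 and 2.5 TPM with vector, which did not pass (1.01, SE 0.30, limma adjusted p = 0.131). Trbv13-1 rose in Luc by 1.23 (SE 0.30, limma adjusted p = 0.0144) and changed by a similar 1.28 in LucOS without passing (SE 0.34, adjusted p = 0.104).

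In LucOS tumours 1 of the 18 tested segments rose with Aoah, Trbc2, where 0.75% of all tested genes rose. No segment fell, where 0.215% of all genes did (0.965% in either direction). Trbv5 changed by 0.56 (SE 0.20, limma adjusted p = 0.231), and Trbv17 changed by 1.48 (SE 0.68, adjusted p = 0.397). Averaged over both models, 12 segments rose and none fell, where 8.02% of all tested genes rose, 6.68% fell and 14.7% did either. As in Luc, segments such as Trbv5 and Trbv14 met the level for testing only through Aoah tumours, so this count too is a description. These 12 were Trbc1, Trbc2, Trac, Trbv3, Trbv5, Trbv12-2, Trbv13-1, Trbv13-2, Trbv13-3, Trbv14, Trbv15 and Trbv19. That count was 7 without LucOS vector 2, 7 without LucOS vector 3, and 7 without Luc vector 1 and vector 3.

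**Figure D2:**
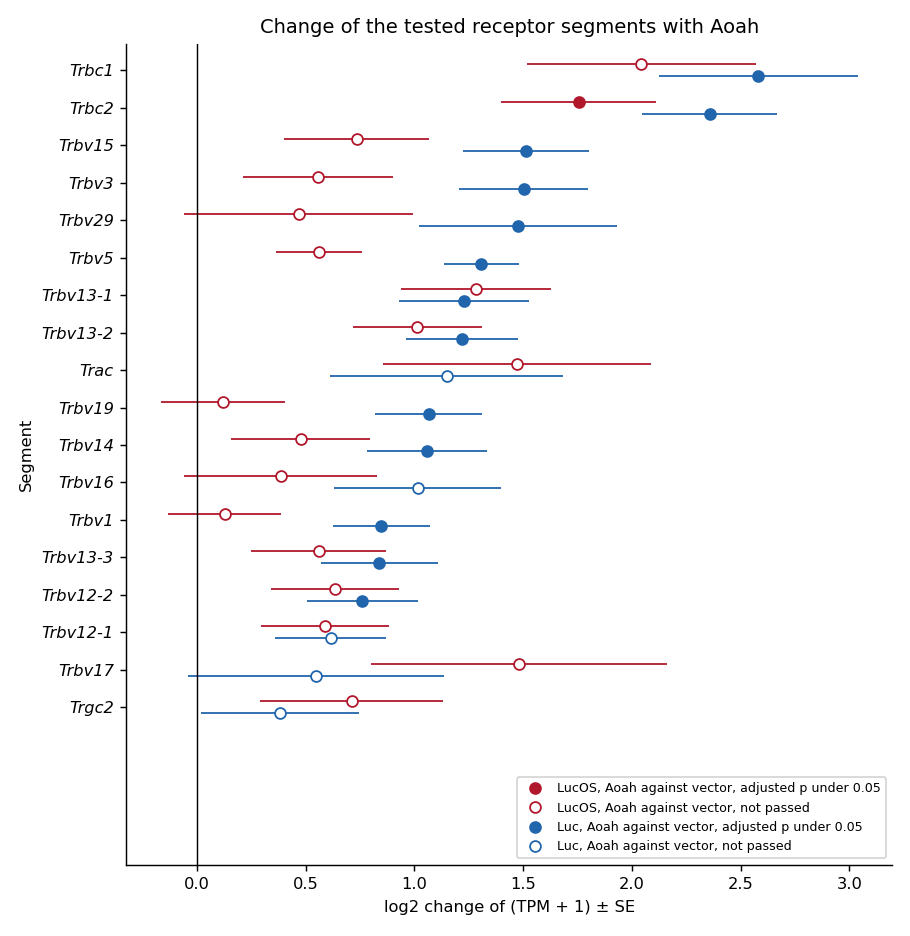
Change of the 18 tested segments with Aoah (x axis, log2 change of TPM + 1 with its standard error) by segment (y axis), for LucOS above Luc. Filled points passed an adjusted p of 0.05: 1 in LucOS and 13 in Luc.

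A difference of the Aoah effect between the models was not shown for any segment. In limma's interaction test 0 of the 18 passed, 2 had an unadjusted p under 0.05 and the smallest adjusted p was 0.443, where 1 of all tested genes passed in either direction (0.00743%). Trbv5 differed by -0.74 (SE 0.26) and Trbv19 by -0.95 (SE 0.38) as LucOS minus Luc, and the next was Trbv1 at -0.72 (SE 0.34). Trbv5 met the level for testing only through the Luc Aoah tumours, which favours a negative difference here. Trbv19 stood at 0.36, 0.90 and 0.10 TPM in LucOS Aoah against 1.01, 0 and 0.10 TPM in LucOS vector tumours, so that the groups overlapped there.

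Counted by position alone, 11 of 23 beta variable segments had every Luc Aoah tumour above every Luc vector tumour, where 6.53% of all genes in the table and 11.8% of the tested genes did. They were Trbv1, Trbv2, Trbv3, Trbv5, Trbv12-1, Trbv13-1, Trbv13-2, Trbv13-3, Trbv14, Trbv15 and Trbv19. In LucOS 6 of 23 did, Trbv2, Trbv5, Trbv12-2, Trbv13-1, Trbv17 and Trbv31, where 5.22% of all genes and 6.22% of the tested genes did. No beta variable segment had every Aoah tumour below every vector tumour, as 6.07% of the tested genes did in LucOS and 9.1% in Luc. Trbv2, which did not reach the level for testing, stood at 1.28, 0.75 and 1.09 TPM in LucOS Aoah against 0.24, 0 and 0 TPM in LucOS vector tumours. In Luc, Trbv2 stood at 0.42, 0.59, 0.33 and 0.97 TPM with Aoah against 0.21, 0, 0 and 0 TPM with vector. Trbv31 showed no such order in Luc, with 0.43, 0.16, 0 and 0 TPM with Aoah against 0.24, 0.76, 0 and 0.63 TPM with vector. Trbv4, V beta 10, also lay below the level for testing, with 2.36, 1.17 and 0.86 TPM in LucOS Aoah against 0.96, 0 and 0.28 TPM in LucOS vector tumours. In Luc, Trbv4 stood at 0.62, 0.72, 0.74 and 0.22 TPM with Aoah against 0.18, 0, 0.19 and 0.47 TPM with vector, so its groups overlapped in both models. Trbv21, Trbv23, Trbv24 and Trbv30 were above 0 in 1 or 2 tumours each, at up to 0.84 TPM.

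Single segments dominated a few tumours. Trbv17, or V beta 9, stood at 13.93 TPM in LucOS Aoah 3 and at no more than 1.71 TPM in the other 13 tumours. It made up 35.3% of all beta variable TPM in LucOS Aoah 3, and the other segments there summed to 25.54 TPM, close to 25.29 TPM in LucOS Aoah 1. Trbv29, or V beta 7, was the leading segment in Luc Aoah 3 (4.38 TPM), Luc Aoah 4 (5.40 TPM), LucOS vector 1 (2.98 TPM) and Luc vector 4 (0.85 TPM). Its Luc groups overlapped, with 1.93, 0.66, 4.38 and 5.40 TPM with Aoah against 0.22, 0.23, 0 and 0.85 TPM with vector, and its rise passed (1.48, SE 0.46, limma adjusted p = 0.0362). Trbv16, or V beta 11, was at 1.96 TPM in Luc vector 1, 40.7% of that tumour's beta variable TPM, and at 0 to 0.19 TPM in the other Luc vector tumours. The leading segment took 11.4% to 35.3% of beta variable TPM in Aoah tumours and 18.7% to 40.7% in vector tumours. The vector tumour with the lowest share, LucOS vector 1, had 19 of 23 beta segments above 0, and the one with the highest, Luc vector 1, had 10.

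**Figure D3:**
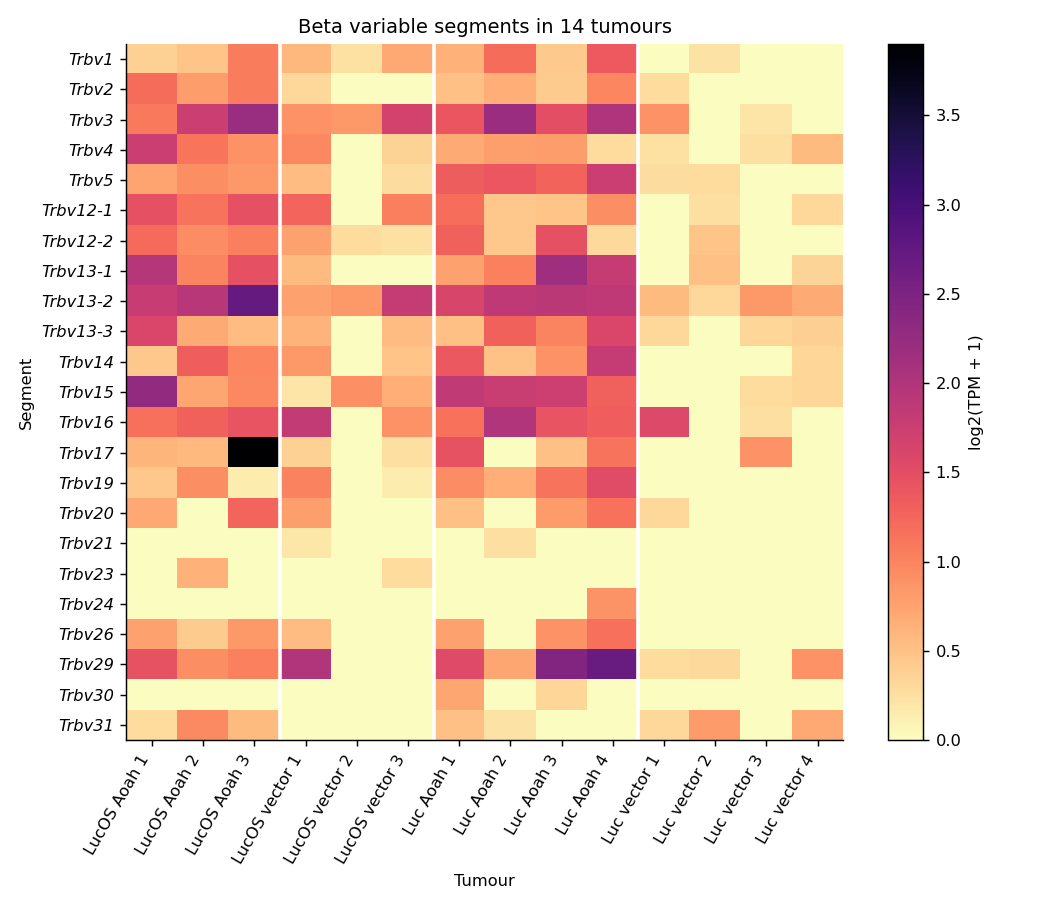
Level of the 23 beta variable segments (rows) in 14 tumours (columns, Aoah left of vector in each model) as log2(TPM + 1), darker for higher. Trbv17 in LucOS Aoah 3 (13.93 TPM) is the darkest cell, and the Luc vector columns are mostly at or near 0.

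Alpha variable segments were detected at very low levels, and only 6 of 78 ever reached 1 TPM in a tumour. Their sums were 6.19, 3.38 and 15.86 TPM in LucOS Aoah against 1.08, 2.61 and 3.01 TPM in LucOS vector tumours. In Luc they were 3.33, 4.94, 2.36 and 3.67 TPM with Aoah against 2.13, 0.22, 0.47 and 0.74 TPM with vector. By these sums every Aoah tumour exceeded every vector tumour of its model, by a narrow margin in both. The number of alpha variable segments above 0 was 28, 14 and 37 in LucOS Aoah against 5, 9 and 12 in LucOS vector tumours, and 17, 20, 8 and 13 in Luc Aoah against 8, 1, 2 and 3 in Luc vector tumours. Of the 78 segments, 38 were above 0 in exactly 1 tumour, 11 of them in LucOS Aoah 3.

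Between the groups, 52 of 78 alpha variable segments had the higher mean in LucOS Aoah tumours, 13 the lower and 13 were at 0 in both groups. Among genes of the table under the level requirement and above 0 in LucOS, 58.2% had the higher mean with Aoah. In Luc 39 had the higher mean with Aoah, 7 the lower and 32 were at 0 in both, where 42.6% of such genes had the higher mean. Single segments rarely separated the groups. In LucOS 2 of 78 did, where 5.22% of all genes did: Trav3-3 stood at 0.66, 0.30 and 1.37 TPM with Aoah and at 0 in the vector tumours, and Trav4-4-dv10 stood at 0.18, 0.51 and 0.40 TPM with Aoah and at 0 with vector. In Luc 0 of 78 did, where 6.53% of all genes did. Trav16n had the highest mean of the 78 and was above 0 in 7 tumours, with its highest level of 1.33 TPM in Luc Aoah 2.

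Segments known from particular receptors were read one by one, since a segment is shared by many other T cells. Invariant NKT cells, which see lipid on CD1d, use Trav11 with Trbv13-2, Trbv29 or Trbv1. The only Trav11 symbol of the table, Trav11d, was above 0 in 2 tumours, at 0.22 TPM in LucOS Aoah 3 and 0.24 TPM in Luc Aoah 2. Trbv1 stood at 0.55, 1.29, 0.35 and 1.57 TPM in Luc Aoah against 0, 0.17, 0 and 0 TPM in Luc vector tumours (log2 change 0.85, SE 0.22, limma adjusted p = 0.0214). In LucOS it stood at 0.29, 0.40 and 1.09 TPM with Aoah against 0.50, 0.18 and 0.63 TPM with vector, which overlapped (0.13, SE 0.26, limma adjusted p = 0.920). The joining segment of the invariant NKT chain and the alpha segments of MAIT cells, T cells that see microbial vitamin B metabolites, were not analysed here. Trbv19, described above, is one of the beta segments known in MAIT cells.

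The transgenic OT-I and OT-II receptors, which recognise ovalbumin peptides, use V alpha 2 (the Trav14 family) with V beta 5 (the Trbv12 family). The 2 Trbv12 members summed to 3.08, 2.10 and 2.83 TPM in LucOS Aoah against 2.10, 0.21 and 1.24 TPM in LucOS vector tumours. In Luc these sums were 2.71, 0.74, 2.17 and 1.12 TPM with Aoah against 0, 0.58, 0 and 0.24 TPM with vector. Trbv12-2 rose in Luc (log2 change 0.76, SE 0.25, limma adjusted p = 0.0458), though its groups overlapped at 0.23 TPM with Aoah against 0.39 TPM with vector, and Trbv12-1 did not pass (0.62, SE 0.26, adjusted p = 0.0863). The 6 Trav14 segments overlapped between the LucOS groups, with summed 0.66, 0 and 0.68 TPM with Aoah against 0.27, 1.23 and 1.39 TPM with vector. In Luc the Trav14 sums were 0, 0.21, 0 and 0.43 TPM with Aoah against 0.35, 0, 0 and 0 TPM with vector. Trav14n-3 was the leading alpha segment of LucOS vector 2 (0.77 TPM) and LucOS vector 3 (1.03 TPM). The 2C receptor, which recognises SIY, uses V alpha 3 (the Trav9 family) with Trbv13-2. The 8 Trav9 segments summed to 0.29, 0 and 1.18 TPM in LucOS Aoah, to 0, 0.10 and 0 TPM in LucOS vector tumours, to 0.33, 0, 0.19 and 0 TPM in Luc Aoah and to 0 in the Luc vector tumours.

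Delta genes were near the bottom of the measured range in TPM. The delta constant gene Trdc lies inside the alpha locus and is lost when that locus is rearranged for an alpha chain. It was at 0.08 TPM or less in every tumour. Its mean normalised count, as deposited by the authors, was 2.99 in LucOS and 4.26 in Luc, against 3.19 and 3.04 for Trbv13-3. The low TPM of Trdc therefore does not mean fewer reads than such a variable segment. The delta variable segments Trdv1, Trdv2-2, Trdv4 and Trdv5 were above 0 in 1 to 3 tumours each, at up to 0.53 TPM for Trdv4 in Luc Aoah 4. Summed delta variable TPM was 0 in 9 of the tumours.

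Among gamma genes the leading one was Trgc2, whose cluster in the locus also holds Trgv2. Rearranged gamma genes are also transcribed in some T cells that carry alpha and beta chains. Trgc2 stood at 1.29, 0.57 and 5.68 TPM in LucOS Aoah against 0.21, 0.94 and 1.33 TPM in LucOS vector tumours, and at 0.25, 0.45, 0.12 and 1.24 TPM in Luc Aoah against 0.11, 0.11, 0.06 and 0.21 TPM in Luc vector tumours. The Trgc2 groups overlapped in both models, and neither change passed (LucOS 0.71, SE 0.42, limma adjusted p = 0.551, and Luc 0.38, SE 0.36, adjusted p = 0.433). Sums over the gamma constant genes did not overlap in Luc. They were 0.66, 0.69, 0.39 and 1.72 TPM with Aoah against 0.11, 0.27, 0.29 and 0.21 TPM with vector. In LucOS they overlapped, at 1.61, 0.99 and 7.99 TPM with Aoah against 0.37, 1.16 and 1.72 TPM with vector. These sums were not tested. Trgv2 was above 0 in 7 tumours, at 0.44, 0.10 and 1.32 TPM in LucOS Aoah, at 0.10, 0.28 and 0.24 TPM in LucOS vector tumours and at 0.21 TPM in Luc Aoah 1. It was listed at 0 in the other Luc Aoah and in all Luc vector tumours, so it was above 0 in 6 of 6 LucOS and 1 of 8 Luc tumours, at levels where a listed 0 may be a missed transcript. Trgc1 stayed at or below 0.99 TPM, Trgc4 reached 1.32 TPM in LucOS Aoah 3, and Trgc3 was above 0 only in Luc vector 3 (0.12 TPM). Trgv1, Trgv3, Trgv4, Trgv6 and Trgv7 were above 0 in 1 or 2 tumours each, at up to 0.42 TPM. Summed gamma constant TPM per 100 summed beta constant TPM was 3.41, 2.69 and 10.4 in LucOS Aoah, 1.86, 18.7 and 10.7 in LucOS vector, 1.98, 2.17, 0.927 and 2.95 in Luc Aoah and 1.08, 9.47, 5.01 and 3.42 in Luc vector tumours.

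LucOS tumours were then set against Luc tumours with the same plasmid, to see whether the added antigens went with receptor RNA. Among vector tumours Trbc2 stood at 10.95, 4.83 and 11.80 TPM in LucOS and at 6.41, 2.61, 3.75 and 3.69 TPM in Luc (log2 change 0.96, SE 0.33, limma adjusted p = 0.344). None of the 18 segments passed in limma, 3 had an unadjusted p under 0.05, where 0% of all tested genes passed. Trbv3 and Trbv12-1 were the other two, with changes of 0.86 and 0.63 (limma adjusted p = 0.344 each). LucOS vector 2, with 2.83 TPM of summed beta variable segments, lay within the Luc vector tumours (2.61 to 4.82 TPM). Among Aoah tumours also 0 of 18 passed and 3 had an unadjusted p under 0.05, where 0.0817% of all tested genes passed in either direction. Trbv5 was there at 0.67, 0.90 and 0.78 TPM in LucOS against 1.53, 1.63, 1.41 and 2.40 TPM in Luc (-0.61, SE 0.19, limma adjusted p = 0.412). It met the level for testing only through the Luc Aoah tumours, which favours such a difference, so these values are a description. Trgc2 changed by 0.98 and Trbv12-1 by 0.60 between these groups (limma adjusted p = 0.662 and 0.703).

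The repertoire table counted TRB clonotypes, distinct beta chain rearrangements assembled from the reads. There were 51, 51 and 73 TRB clonotypes in LucOS Aoah against 58, 6 and 21 in LucOS vector tumours. In Luc there were 84, 52, 67 and 70 with Aoah against 10, 4, 8 and 4 with vector. The Luc groups were widely separated, while LucOS vector 1 lay among the Aoah tumours. The mean was 68.3 ± 13.1 in Luc Aoah and 6.5 ± 3 in Luc vector tumours (SD, n = 4 each), a difference in the two-sided exact permutation test at p = 0.0286, the smallest that 4 against 4 allows, and 0.0762 after Benjamini-Hochberg adjustment over the 8 rows. In LucOS the mean was 58.3 ± 12.7 with Aoah and 28.3 ± 26.8 with vector (SD, n = 3 each, exact permutation p = 0.3, adjusted 0.48), where 3 against 3 cannot go below 0.1. With labels permuted inside each model over both models, exact p was 0.00429 (adjusted 0.0152), with a difference of 45.9 clonotypes. These numbers are not scaled to depth, which is unknown.

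The clone number of the table was at least the clonotype number in all 14 tumours for both chains. Where the clone number exceeded the clonotype number by at most 1, the entropy equalled that of the clone counts in 5 of 5 tumours for TRA and 2 of 2 for TRB (tolerance 1e-06), all with 7 clones or fewer. In those tumours the clone number was the total behind the entropy, and whether it counts reads or molecules is not stated. TRB clones numbered 81, 87 and 157 in LucOS Aoah against 71, 17 and 29 in LucOS vector tumours, and 135, 77, 91 and 112 in Luc Aoah against 12, 5, 10 and 4 in Luc vector tumours. No vector tumour reached an Aoah tumour of its model. Over both models the difference was 82.7 clones (exact permutation p = 0.00143, the smallest these groups allow, adjusted 0.0114). Within LucOS the exact permutation p was 0.1, also the smallest possible, and within Luc it was 0.0286.

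TRA clonotypes were fewer than TRB clonotypes in every tumour, at 27, 6 and 39 in LucOS Aoah against 4, 5 and 14 in LucOS vector tumours, and at 17, 16, 5 and 12 in Luc Aoah against 6, 1, 7 and 2 in Luc vector tumours. The groups overlapped in both models. Their difference over both models was 12.4 (exact permutation p = 0.0314, adjusted 0.0590), in LucOS 16.3 (p = 0.2 by exact permutation) and in Luc 8.5 (p = 0.0857 by exact permutation). The ratio of TRB to TRA clonotypes varied between tumours of the same group, at 1.89, 8.5 and 1.87 in LucOS Aoah, 14.5, 1.2 and 1.5 in LucOS vector, 4.94, 3.25, 13.4 and 5.83 in Luc Aoah and 1.67, 4.00, 1.14 and 2.00 in Luc vector tumours.

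TRB entropy, which rises with the number and evenness of clonotypes, was 5.46, 5.39 and 5.34 in LucOS Aoah against 5.76, 2.13 and 4.28 in LucOS vector tumours. In Luc it was 6.15, 5.29, 5.93 and 5.91 with Aoah against 3.25, 1.92, 2.92 and 2.00 with vector, again without overlap (exact permutation p = 0.0286, adjusted 0.0762). Clonality in the table was 1 minus the entropy over log2 of the clonotype number, in 13 of 13 tumours for TRA and 14 of 14 for TRB, so 0 means that all clonotypes were equally frequent. No difference in TRB clonality was detectable. It was 0.0375, 0.0497 and 0.137 in LucOS Aoah against 0.0175, 0.176 and 0.0255 in LucOS vector tumours, and 0.0374, 0.0722, 0.0232 and 0.0362 in Luc Aoah against 0.0212, 0.0390, 0.0260 and 0 in Luc vector tumours (both models, exact permutation p = 0.591). The highest value, in LucOS vector 2, came from 6 clonotypes and 17 clones. The next, in LucOS Aoah 3, came from 73 clonotypes and 157 clones, in the tumour where Trbv17 made up 35.3% of beta variable TPM. TRA clonality stayed between 0 and 0.0603, and Luc vector 2, with a single TRA clonotype, has no value.

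Between LucOS and Luc vector tumours, TRB clones numbered 71, 17 and 29 against 12, 5, 10 and 4, without overlap (exact permutation p = 0.0286, the smallest possible, adjusted 0.229). TRB clonotypes numbered 58, 6 and 21 in LucOS vector against 10, 4, 8 and 4 in Luc vector tumours, which overlapped (p = 0.0857 by exact permutation). Between LucOS and Luc Aoah tumours the difference was -9.92 TRB clonotypes (p = 0.371 by exact permutation).

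**Figure D4:**
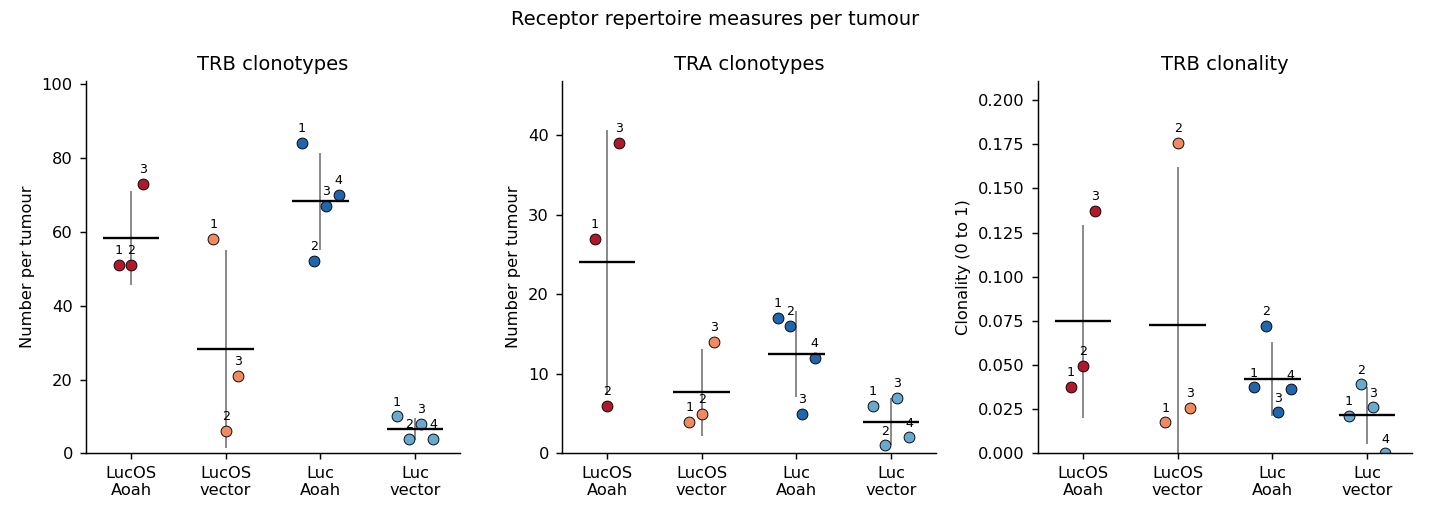
TRB clonotypes, TRA clonotypes and TRB clonality (y axes) per tumour in the 4 groups (x axis). Points are tumours with their replicate number, bars group means and vertical lines SDs; TRB clonotypes lay at 52 to 84 in Luc Aoah and 4 to 10 in Luc vector tumours, while clonality overlapped in both models.

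Receptor RNA was next set beside CD3 RNA of the same tumour. Summed Trbc1 and Trbc2 TPM was 1.52 to 2.5 times the summed CD3 TPM in all 14 tumours. These sums kept nearly one proportion across groups, which the single CD3 genes did not keep to each other. Cd3d and Cd3e stood at 12.45 and 1.35 TPM in Luc Aoah 3, and at 10.02 and 13.63 TPM in LucOS Aoah 3. The ratio of the sums was 1.75, 2.12 and 1.55 in LucOS Aoah, 1.90, 1.61 and 1.52 in LucOS vector, 2.41, 1.63, 2.24 and 2.5 in Luc Aoah and 2.11, 1.93, 2.01 and 1.88 in Luc vector tumours. Trac did not keep such a proportion. In Luc vector 3 and vector 4 it was 1.13 and 1.24 times the CD3 sum, against 0.139 to 0.491 in the other 12 tumours. These tumours also had the fewest alpha variable TPM per 100 Trac TPM, 14.5 and 18.2, against 28.4 to 162 elsewhere. Their Trac TPM per 100 beta constant TPM was 56.1 and 66.3, against 6.23 to 28.2 elsewhere. Within Luc, the overlap of Trac between the groups involved these 2 vector tumours and, on the other side, Luc Aoah 1 and Luc Aoah 3. Of all 14 tumours, Luc Aoah 3 had the lowest Trac relative to the CD3 sum (0.139) and per 100 beta constant TPM (6.23). It also had the highest Cd3d of the 14, which made up most of its CD3 sum, so the first ratio depends on that gene. The part of these proportions in the overlap was not tested.

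**Figure D5:**
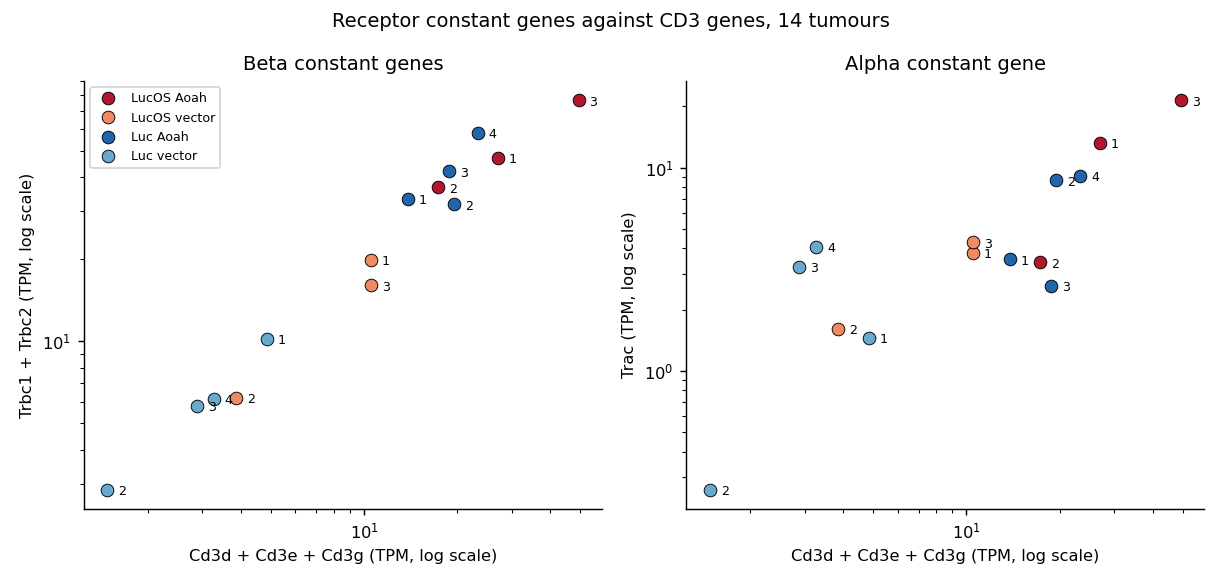
Summed Trbc1 and Trbc2 TPM (left) and Trac TPM (right) on the y axes against summed Cd3d, Cd3e and Cd3g TPM on the x axes, all on log scales, for 14 tumours coloured by group and labelled by replicate. Summed beta constant genes follow the CD3 sum in all tumours, while Luc vector 3 and vector 4 lie high in Trac (3.25 and 4.07 TPM at 2.88 and 3.27 TPM of summed CD3).

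Genes that work with the receptor moved with it in Luc. Of 11 genes of the receptor complex and its coreceptors, 7 of 10 tested rose and none fell, with Cd3d at 2.34, Cd2, an adhesion receptor, at 2.02, Cd3g at 1.83 and Cd247, the zeta chain, at 1.22 (limma log2 changes, highest adjusted p of the 4 = 0.00842). Cd8a and Cd8b1, the CD8 coreceptor chains, rose by 1.00 and 1.03 (limma adjusted p = 0.0421 and 0.0305), and Cd4 did not pass (0.57, adjusted p = 0.214). Of 16 genes of receptor signalling, 6 of 10 tested rose, among them Themis (1.26), the kinases Lck (1.77) and Zap70 (1.39) and the adaptor Lat (1.15). In the list of CD8 and cytotoxic genes 9 of 10 tested rose, among them Gzma and Gzmb, granzymes that kill target cells, by 2.68 and 2.21. Each count stands beside 7.93% of all tested genes. In LucOS 1 of 10 complex genes rose (Cd3g, 1.81, limma adjusted p = 0.0463) and 1 of 10 signalling genes (Zap70, 1.34, adjusted p = 0.0330), beside 0.75% of all tested genes. Cd4, Cd8a and Cd8b1 did not pass there. Cd4 stood at 2.07, 0.71 and 4.98 TPM in LucOS Aoah against 0.43, 0.3 and 0.46 TPM in LucOS vector tumours. Cd8a stood at 3.8, 2.27 and 8.81 against 0.92, 0.8 and 2.76 TPM, and Cd8b1 at 3.5, 1.95 and 5.54 against 0.92, 0.23 and 1.04 TPM. In LucOS 9 of 10 complex, 10 of 10 signalling and 7 of 10 cytotoxic genes had an unadjusted limma p under 0.05. In Luc 8, 6 and 10 of 10 did, where 1654 of 13466 tested genes did in LucOS and 5625 in Luc. The median log2 changes of these lists were 1.35, 0.84 and 1.11 in LucOS and 1.01, 0.74 and 1.78 in Luc.

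Lists for other lymphocytes were read for the same comparison. In the NKT and innate-like list 4 of 6 tested genes rose in Luc and 1 fell, beside 7.93% and 14.3% of all tested genes, shares that also stand beside the other Luc counts given next. Cd1d1, which presents lipid to NKT cells and is made by liver cells themselves, rose by 2.12 (limma adjusted p = 0.00249), and in LucOS by 2.27 (adjusted p = 0.0293). Cxcr6, a chemokine receptor of liver T and NKT cells, rose by 2.18 in Luc (limma adjusted p = 0.00100), and the fall was in Zbtb16, the NKT lineage factor, by -1.28 (adjusted p = 0.0208). Zbtb16 stood at 2.04 to 4.00 TPM in Luc vector tumours, where Cd3d, Cd3e and Cd3g each stood at 1.93 TPM or less. Which cells the Zbtb16 RNA came from was not tested. In the CD4 and regulatory T list 0 of 4 tested passed in limma (2 at an unadjusted p under 0.05). In the gamma delta T list 0 of 4 rose and 1 fell, Il1r1 (-1.62, limma adjusted p = 0.00229), a gene that liver cells also express, and Il17f and Il23r were at 0.06 TPM or less in every tumour. The 2 tested B cell genes included 1 rise, Cd79b (0.74, limma adjusted p = 0.0125), and the only tested gene of the NK list was Gzma, which the CD8 list also holds. Dntt, which adds bases at the joints of receptor genes in the thymus, reached 1.38 TPM in Luc Aoah 2 and Ptcra, the surrogate alpha chain of thymocytes, reached 0.94 TPM in LucOS vector 1, and neither met the level for testing.

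Markers of cells that carry no T cell receptor also changed in Luc, where again 7.93% of all tested genes rose and 14.3% fell. Hepatocyte genes summed to 10914 to 24243 TPM in LucOS Aoah against 4494 to 14368 TPM in LucOS vector tumours. In Luc the sum was 11163 to 29202 TPM with Aoah against 7798 to 11142 TPM with vector, and 4 of 10 genes rose and none fell. Neutrophil genes summed to 127 to 450 TPM in LucOS Aoah against 404 to 913 TPM in LucOS vector tumours. In Luc the sum was 51.3 to 102 TPM with Aoah against 139 to 388 TPM with vector, and 4 of 7 tested genes fell. In LucOS 1 of 10 hepatocyte genes rose, beside 0.75% of all tested genes, and 0 of 7 neutrophil genes passed in limma (4 at an unadjusted p under 0.05). Of the other lists, the 1 dendritic cell gene tested did not pass, 2 of 10 Kupffer cell genes rose, and 2 of 5 plasma cell genes rose and 1 fell in Luc. The part of these shifts in the receptor results was not tested. In LucOS Aoah 3, the tumour with the high mitochondrial share, Trac, Trbc1, Trbc2, Trgc2, Trgc4 and Trgv2 were each at their highest of all 14 tumours, as were 19 of 78 alpha variable segments. The part of that share in these levels was not tested either.

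The authors' deposited tables of Aoah against vector, oriented by the sign of Aoah, listed 101 of the 119 segments in LucOS and 82 in Luc. Adjusted p-values stood for 17 and 24 of these. At adjusted 0.05 the authors' deposited table of LucOS had 1 segment higher, Trbc2, where 1.99% of all genes with an adjusted p were higher. In Luc the authors' deposited table had 14 segments higher and none lower, where 15.6% of all genes with an adjusted p were higher. Of these 14, Trbv2, Trac and Trgc2 did not pass or were not tested here in Luc, with authors' adjusted p-values of 0.0346, 0.0150 and 0.0456 in the authors' deposited table. Trbv12-2 and Trbv13-3, which passed here, were not among them. In the authors' deposited table the mean normalised count of Trbc2 was 297 in LucOS and 203 in Luc, while that of Trbv13-2 was 11.5 in LucOS and 6.56 in Luc. Mean counts under 10 stood for 94 of the 101 segments in LucOS and 79 of the 82 in Luc in the authors' deposited tables, so most variable segments rest on a handful of reads.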

How the data were processed

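The expression table held log2(TPM + 1) values per gene and tumour, which the authors deposited; RSEM, DESeq2 and the build mm39 are named in the submitters' processing notes, and no source used here gives an aligner. RNA was selected by poly-T beads, and whether the libraries kept strand is not stated, so overlapping and antisense genes may share reads. The authors' deposited tables for LucOS and Luc hold a signal per gene (mean normalised count), a log2 fold change with its standard error, a score (the Wald statistic), a p-value and an adjusted p-value; their headers do not name the numerator, which was read from the sign of Aoah. The repertoire table, as deposited, holds MiXCR clonotype and clone numbers, entropy and clonality.

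Values were returned to TPM for printing. Genes with at least 1 TPM in at least 3 tumours (13466 of 29923) were fitted on log2(TPM + 1) with limma 3.58.1 in R 4.3.3 (trend, robust, 1 mean per group, all 14 tumours), with Benjamini-Hochberg adjustment over all of them at 0.05. Fold changes on this scale understate those of low genes. For repertoire values the test was an exact permutation test, two-sided (numpy 2.4.6), adjusted over the 8 rows. The scripts were tested on simulated data. Identities between segments come from pairwise alignment (biopython 1.88) of GENCODE M21 transcripts, all 119 segments being matched by symbol or RefSeq synonym. 0 columns of per-sample values were left unused. Replicates of a group correlated at 0.906 to 0.982 across genes.

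The members, marker lists and tests were chosen with earlier results of these data known. Named genes are the constant genes, segments of known receptors, every segment past the threshold (the 12 with the smallest p where more passed, or the 3 with the smallest p where none did), the 5 variable segments per chain with the highest mean, and up to 4 genes per marker list. Segments named as leading a tumour or as not overlapping between groups, and Cd4, Cd8a, Cd8b1 and Gzmb, were chosen after their values were seen. Alternatives were another pseudocount, other level filters, median centring, a replicate block, only the groups compared, differences in medians, and leaving out single tumours or Luc vector 1 and 3.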

Additional observations from a re-analysis of the deposited data

Results flagged for a closer look

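In groups of 4 tumours, 6 of 65 member values (9.23%) had a tumour standing apart from the other three by Dixon's 95% criterion. Chance flags about 1 in 20 groups, but 4 of the 6 are a single value above 0 beside 0 in the rest, which this criterion always picks, so the counts cannot be compared. Of these, 5 were Luc vector tumours. Trbv1 stood at 0.17 TPM in Luc vector 2 and Trbv12-2 at 0.39 TPM in the same tumour, each listed at 0 in the rest of that group. Trbv14 stood at 0.26 TPM in Luc vector 4 and Trbv17 at 0.85 TPM in Luc vector 3, again with 0 in the rest. Trbv16 stood at 1.96 TPM in Luc vector 1, against 0 to 0.19 TPM in the rest. The Luc Aoah group had 1 such value, Trbv13-2 at 2.09 TPM in Luc Aoah 1, below the 2.63 to 2.72 TPM of the rest.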

How the results depend on the processing

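Over 61 named values and 1039 values under alternatives, 865 kept direction and side of the threshold, 158 lost their call, 10 gained one and 6 changed sign. For segments higher in LucOS with Aoah (1, Trbc2) the count was 0 with no level filter, 3 with a 0.1 TPM filter, 0 with median centring, 0 without Luc vector 1 and 3, 0 with only the groups compared, 0 without Luc Aoah 3 and LucOS Aoah 3 together (chosen after seeing the data), and 0 to 1 leaving out 1 tumour. For Luc (13) it was 4 without Luc vector 1 and 3 and 7 to 13 leaving out 1 tumour; for both models (12) it was 7 and 7 to 14. In the repertoire, 3 of 8 rows had an exact unadjusted p under 0.05 in Luc; 0 did for differences in medians and 0 without Luc vector 1 and 3, and 3 to 5 leaving out 1 tumour. For both models (6) the range was 3 to 6. The 1 such row between LucOS and Luc vector tumours was 0 for medians, 0 without Luc vector 1 and 3, and 0 leaving out 1 tumour. Without Luc vector 1 and 3, and with 1 tumour left out between LucOS and Luc vector, no exact p can reach 0.05. The same holds for medians in Luc and between LucOS and Luc vector, where several labellings share the largest difference. These zeros therefore say nothing about stability. In LucOS, Trbv1 became -0.0831 without LucOS Aoah 3, alone or with Luc Aoah 3, and -0.00615 without LucOS vector 2, with 0.26 as its highest value leaving out 1 tumour. Trbv19 became -0.0910 without LucOS Aoah 2, -0.0700 without LucOS vector 2 and -0.00123 without LucOS vector 3, with 0.43 as its highest. Neither had passed, and the cause was not tested.

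Same-numbered tumours did not deviate together (correlations -0.554 to 0.096, against -0.448 to 0.488 for different numbers). A pairing by number was therefore not shown, though so few tumours cannot exclude one. With the replicate block 10 segments rose in Luc and 10 in both models. The block left 0 repertoire rows in Luc, where its permutations cannot reach 0.05, and 4 in both models. Unknown depth and segment levels near 1 TPM limit what can be detected: a segment listed at 0 may be present.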
